A study of Mus musculus with 28 samples.

Results

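The Rab GTPases of the mouse pituitary were described across sleep deprivation, restraint and sex. The family was taken as every gene of the count table whose symbol is Rab followed by a number and at most a letter and a further digit, which gave 58 of the 32594 genes. The rule itself uses no measured value. All 58 genes passed the filter on low counts in every fit.

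Rab proteins are small GTPases that switch between a GDP-bound and a GTP-bound state, and in the GTP-bound form they recruit the effectors that move, tether and fuse vesicles. Guanine nucleotide exchange factors (GEFs) turn them on, GTPase-activating proteins (GAPs) turn them off, and GDI and escort proteins carry their lipid-modified forms between membrane and cytosol. Endocrine cells of the pituitary keep their hormones in dense-core granules, and the Rab3 proteins, Rab26, Rab27a, Rab27b and Rab37 are the members known from regulated secretion.

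The mice were C57BL/6J, with an age of 8 weeks in the labels (on arrival, by the study's methods). The whole pituitary was sequenced, without separation of the anterior, intermediate and posterior lobes. Paradoxical sleep deprivation (PSD) lasted 12 h on small platforms above water, and the glands of PSD mice were collected 18 h after the end of PSD. Restraint lasted 20 min, and by the study's methods restrained mice were killed minutes after its end. All mice, the controls included, had been adapted to the platform tank beforehand, and the controls then stayed in the home cage. The female groups (control, restraint, PSD, PSD + restraint) held 4 mice each, while the male groups held 4 control, 2 restraint, 3 PSD and 3 PSD + restraint mice. The 28 mice were 16 females and 12 males, mice are named here by group and by the last digit of the number in their label, which does not link animals of different groups. The estrous stage was not given in the sources used here. Control comparisons within a sex share their control mice.

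Total counts per mouse ranged from 14024465 to 52948531, with a median of 33389717. The 4 melanotrope markers are genes of the intermediate lobe cells that cleave proopiomelanocortin. Their summed level ranged from 11801 to 168665 CPM (counts scaled to a common library total), and that of the anterior lobe hormones from 146703 to 321405 CPM. Most of the melanotrope sum was Pomc, which corticotropes, the ACTH-producing cells of the anterior lobe, also express. The sum therefore does not measure the intermediate lobe alone. Every library carried anterior lobe hormones and each of the 4 markers. Their lowest values, all in control males, were 11423 CPM for Pomc, 222 for Pcsk2, 145 for Oacyl and 11.3 for Pax7. A pair of libraries stood apart. Control male 1 had a neurointermediate lobe score (the mean log2 CPM of markers of the intermediate and posterior lobes) of 1.60 where the other males reached up to 5.65, and PSD female 1 had a forebrain marker score of 1.89, the highest of the 28 mice. In control male 1 the summed posterior lobe markers were at 21.8 CPM, against 50.7 to 70.2 in the other control males. Its melanotrope markers were at 11801 CPM, against 50950 to 65253 CPM in those males. In whole-gland RNA, fewer cells of a type and less RNA per cell cannot be told apart.

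In 7 of the 8 secretory members, all but Rab27b, which is not shown, a short coding stretch was compared that encodes part of switch II, the loop that changes shape on GTP hydrolysis. It was picked by an amino acid motif, WDTAG-x-E with any residue at x, that all members shown share. Closeness in it was therefore set in advance and does not mark the members called after treatment, Rab26 and Rab3b. All 7 sequences encode the same amino acids. Capitals mark the bases unlike those of Rab26, and the sequences are from GENCODE M21 transcripts (GRCm38), 5′ to 3′ on the coding strand.
Rab26: tgggacacagctggtcaggag
Rab3a: tgggacacagcAggGcaAgag
Rab3b: tgggacacagctggGcaAgag
Rab3c: tgggacacagcAggCcaggaA
Rab3d: tgggacacagcAggCcaggag
Rab27a: tgggacacGgcGggGcaggag
Rab37: tgggacacTgcAggAcaggag
In Rab26 the stretch lies in exon 5 on the minus strand, at chr17:24530686-24530706, and covers coding bases 469 to 489 of 885. In Rab27a it lies in exon 4 at chr9:73082465-73082485 on the plus strand, and in Rab37 in exon 4 at chr11:115158508-115158528 on the plus strand. In the 4 Rab3 genes it crosses the junction of exons 2 and 3. Of the 21 bases, Rab3b and Rab3d each had 2 unlike Rab26, and the other 4 genes each had 3. Over whole transcripts, 0 of the Rab genes shared an exact stretch as long as the 76-base reads with another, and the longest shared stretch was 70 bases.

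Levels between genes were compared per length, as TPM, which are counts per base of transcript scaled to the same total in every mouse. Rab1b, which acts between endoplasmic reticulum and Golgi, had the highest mean of the family at 153 ± 10.2 TPM (SD, n = 28). Rab11a of the recycling endosome followed with 147 ± 15.7, then Rab1 with 145 ± 9.02, Rab2a with 133 ± 11.0 and the granule protein Rab27a with 129 ± 13.6. Rab1b and Rab11a, Rab11a and Rab1, and Rab2a and Rab27a differed by less than their SDs, whereas Rab1 and Rab2a differed by more. The lowest means were those of Rab37 (0.782 TPM), Rab39 (0.766), Rab42 (0.745), Rab33a (0.620) and Rab44 (0.560 ± 0.661). The length used was the unweighted mean over a gene's annotated transcripts, 758 bases for Rab11a and 1038 for Rab1b beside 2133 for Rab2a. In CPM, without length, Rab2a had 222, Rab27a 213 and Rab1 208, beside 124 for Rab1b and 87.6 for Rab11a. The order and the shares by role depend on this choice of length, and other lengths were not tried.

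Among the secretory members, Rab27a was followed by Rab3b at 103.4 ± 30.6 TPM, rank 7 of 58, with a range over mice from 48.4 to 155. Rab3a had a mean of 72.5 TPM (rank 11), Rab3d 52.3 (rank 16) and Rab3c 38.4 (rank 23). Rab27b with 9.97 TPM (rank 39) and Rab26 with 8.26 ± 1.92 TPM (rank 40, range 5.25 to 14.1) were far lower. The regulated-secretion group made up 17.9% of the summed Rab TPM on average, from 15.6% in control female 2 to 19.9% in PSD female 2. The 16 genes of the endoplasmic reticulum and Golgi made up 31.8% (30.2 to 33.7) and the 9 of the recycling endosome 21.9% (20.6 to 22.8). The summed CPM of the family moved little, from 2773 to 3123 over the 28 mice. The summed TPM ran from 2146 to 2596, with 2146 to 2275 in control females and 2368 to 2573 in control males.

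**Figure D1:**
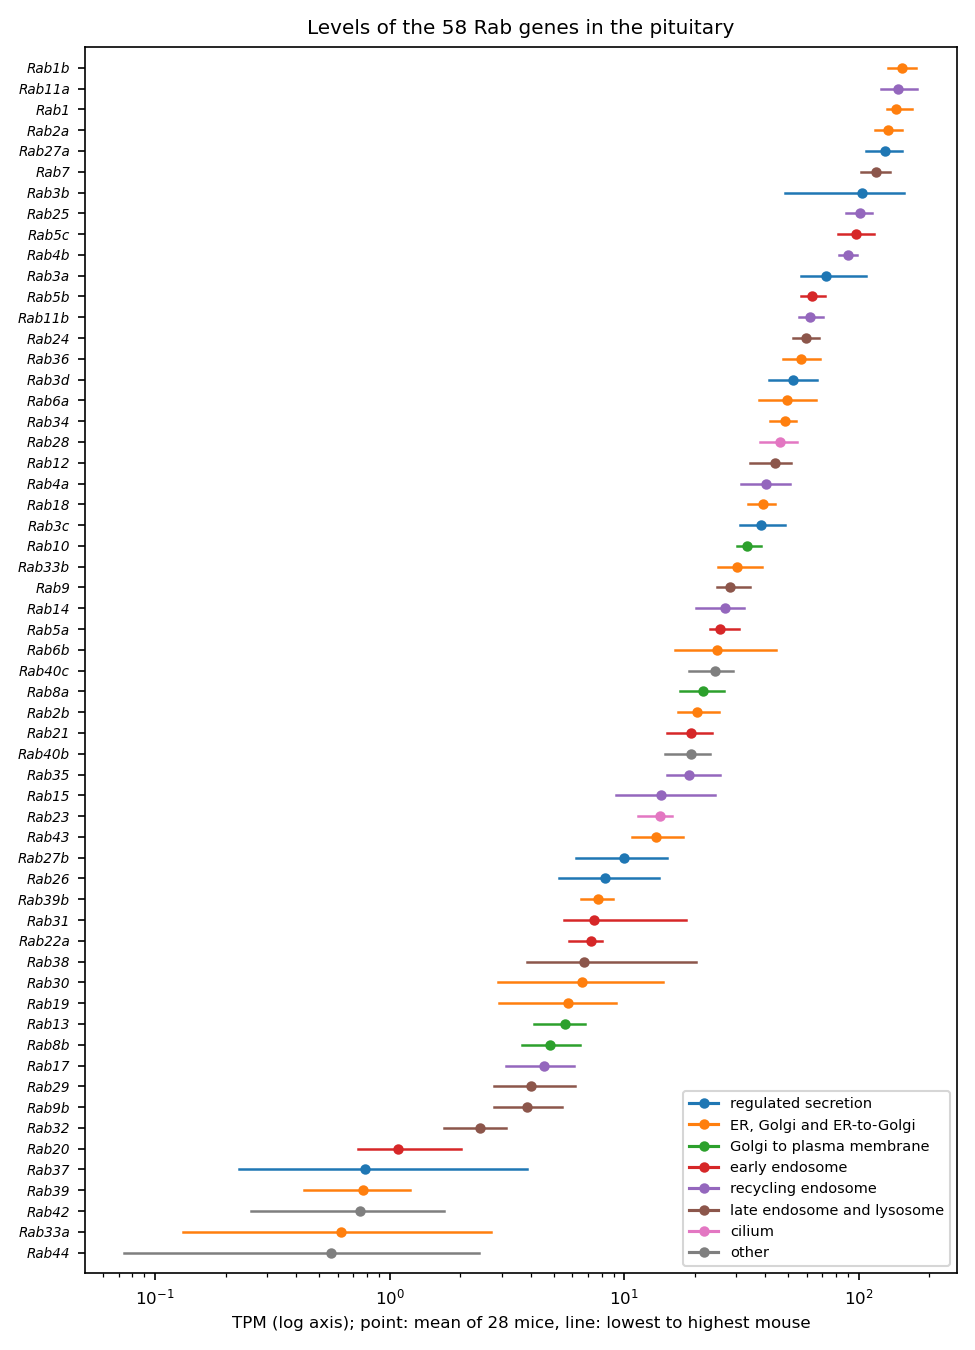
Level of each of the 58 Rab genes in TPM on a log axis; the point is the mean of 28 mice, the line runs from the lowest to the highest mouse and the colour gives the role. Rab1b stands highest at 153 TPM and Rab44 lowest at 0.560 TPM, and Rab26 with 8.26 TPM lies below the Rab3 genes.

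A gene was called where its p in the quasi-likelihood test of edgeR, adjusted by Benjamini-Hochberg over all genes tested, was at most 0.05 and its log2 fold change at least 0.322 in size. In females, 0 of 58 Rab genes were called after restraint, where 0.543% of all genes were called, 1 after PSD (background 0.0277%), and 1 after PSD + restraint (2.2%). In males restraint gave 0 (0.296%), PSD 0 (0.00547%) and PSD + restraint 1 (2.56%). With both sexes in a fit that had sex as a term, restraint gave 0 (1.14%), PSD 1 (0.671%) and PSD + restraint 2 (5.46%). PSD + restraint against PSD gave 1 (2.01%), against restraint 0 (0.0951%), and the interaction of PSD and restraint 0 (0%). The genes called were Rab26, Rab3b and Rab6a, and each was called higher. The share of all genes called higher was 0.0221% for PSD in females, 0.565% for PSD in all mice, 1.53% and 1.92% for PSD + restraint in females and males, 4.1% for it in all mice and 1.41% for it against PSD.

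Where edgeR called no Rab gene, the unadjusted p was under 0.05 for 4 of them after restraint in females (9.77% of all genes), for 3 after restraint in males (5.07%) and for 6 after PSD in males (8.85%). It was so for 2 after restraint in all mice (10.3%), for 9 in PSD + restraint against restraint (13.5%) and for 3 in the interaction (3.92%). DESeq2 called 1 of these, Rab6b after PSD in males, where it called 72 of all 18271 genes. For PSD in females 14 genes had such a p (19.8% of all genes), 8 higher and 6 lower. By sign alone, 31 of the 58 genes lay higher and 27 lower after PSD in females, and 17 higher and 41 lower after PSD in males. The median log2 fold change of the family was 0.02 in these females and −0.05 in these males, beside 0.01 and −0.00 over all genes tested. After PSD + restraint over both sexes 19 lay higher and 39 lower, with a median of −0.04 beside 0.00.

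Groups whose mice did not overlap the controls were more common than calls. After restraint, PSD and their combination this held for 3, 7 and 6 of the 58 genes in females (5.93%, 8.61% and 14.4% of all genes) and for 7, 10 and 9 in males (13.2%, 10.4% and 15.1%).

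**Figure D2:**
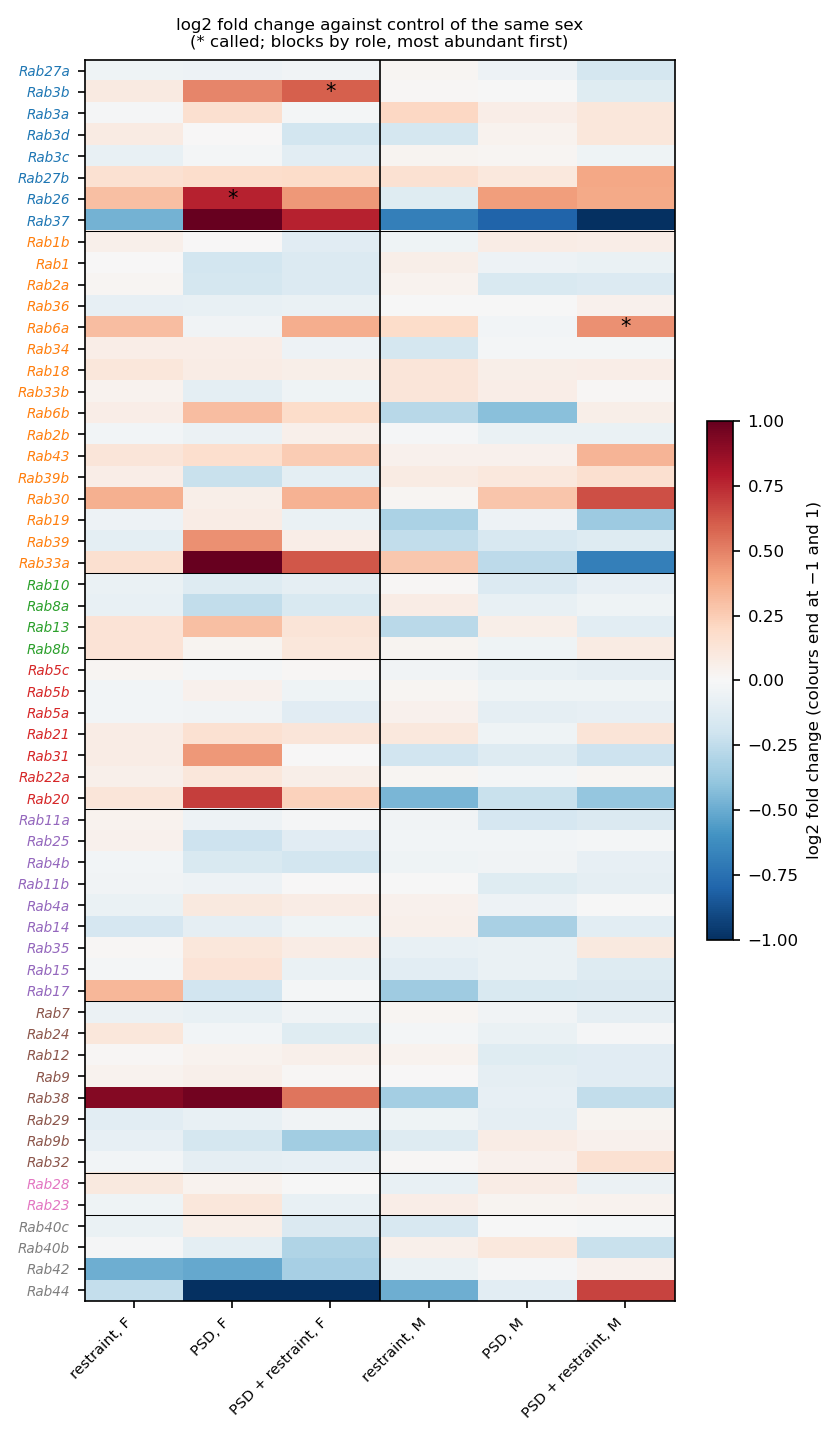
Log2 fold change against control of the 58 Rab genes, in blocks by role, for each treatment in each sex; colours end at −1 and 1 and an asterisk marks a call. The asterisks stand at Rab26 after PSD in females, at Rab3b after PSD + restraint in females and at Rab6a after PSD + restraint in males.

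Rab26 acts in the maturation and recruitment of secretory granules and in the capture of vesicles by autophagy. Its level was higher after PSD, by 1.51-fold over both sexes. Control females had 6.82, 5.88, 5.84 and 5.50 CPM and PSD females 12.2, 10.8, 9.80 and 8.21 CPM. Control males had 6.24, 6.34, 7.42 and 6.58 CPM and PSD males 7.85, 8.42 and 10.2 CPM. In both sexes every PSD mouse lay above every control of the same sex, as was so for 0.401% of all genes and for no other Rab gene.

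The group means were 6.01 ± 0.565 CPM (SD, n = 4) in control females and 10.2 ± 1.66 (n = 4) in PSD females, against 6.65 ± 0.535 (n = 4) in control males and 8.83 ± 1.24 (n = 3) in PSD males. Over both sexes the log2 fold change was 0.60 (SE 0.10, adjusted p = 0.00232, edgeR quasi-likelihood test). In females alone it was 0.77 (SE 0.12, adjusted p = 0.0317), a 1.70-fold rise. In males alone it was 0.42 (SE 0.13), with an adjusted p of 0.399 in the edgeR test. The female and male changes differed by 0.35 (SE 0.18, adjusted p = 0.489 in edgeR), so that no difference between the sexes was called.

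The call in females was lost without any of 11 of the 16 females, among them all 4 controls (adjusted p in edgeR 0.0509 to 0.166) and PSD females 1, 2 and 3 (0.0667, 0.126 and 0.0863). The remaining 4 were PSD + restraint females 1, 2 and 3 and restraint female 1 (0.0528 to 0.0634). It was also lost when only control and PSD females were fitted (0.132).

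After PSD + restraint, females had 8.12, 7.90, 7.71 and 8.71 CPM of Rab26, and males 10.0, 8.19 and 7.50 CPM. All 7 values lay above the controls of their sex, narrowly so for the lowest male. The log2 fold change over both sexes was 0.39 (SE 0.10, adjusted p = 0.00828 in edgeR), while in females alone it was 0.44 (adjusted p = 0.0594) and in males 0.38 (adjusted p = 0.163). The female value was called without control female 1, PSD female 1 or 4, or restraint female 3 (0.0351 to 0.0496).

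Restraint alone gave 7.38, 6.89, 8.28 and 6.88 CPM of Rab26 in females and 5.33 and 6.81 CPM in males. The females lay just above their controls and the males overlapped theirs. The log2 fold change was 0.30 (SE 0.12, adjusted p = 0.4 in edgeR) in females and −0.12 (SE 0.16, adjusted p = 1) in males, and the interaction of PSD and restraint, −0.33 (SE 0.14), had an adjusted p of 1.

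Markers of other tissue moved beside Rab26. The summed CPM of the 4 melanotrope markers, most of it Pomc, ran from 37760 to 69964 in control females and 71978 to 168665 in PSD females. It ran from 11801 to 65253 in control males and 67606 to 104082 in PSD males. Of the 4, edgeR called 0 after PSD in females and 3 after PSD + restraint over both sexes, Pomc (0.99, adjusted p = 0.0157), Pcsk2 (adjusted p = 0.00926) and Oacyl (0.86, adjusted p = 0.0227). Their calls for PSD over both sexes are not given here. After PSD all 4 had higher group means in each sex. The mean of Pcsk2 went from 796 to 1671 CPM in females and from 734 to 1295 CPM in males, and that of Pomc from 48361 to 106882 CPM and from 45743 to 82628 CPM. In the forebrain list, 6 of 7 genes could be tested over all mice, and their summed level ran from 37.9 to 48.3 CPM in control females and from 35.2 to 123 CPM in PSD females. Neurod6 of that list was at 0 in every restraint and PSD + restraint male. PSD females 1, 2 and 3 had total counts of 18035775, 18727938 and 19532245, and summed anterior lobe hormones of 171738, 168276 and 175771 CPM. Control females had 23077710 to 47530774 counts and 226809 to 321405 CPM. PSD female 4, with the lowest Rab26 of its group, had 42243802 counts and 294599 CPM. The part of depth in the level of Rab26 was not tested. With the neurointermediate lobe score as a covariate the log2 fold change of Rab26 over both sexes was 0.58 (adjusted p = 0.00958 in edgeR), with the forebrain score 0.56 (0.00378), and without the pair of libraries that stood apart 0.53 (0.012). In females alone the adjusted p rose to 0.101, 0.0596 and 0.0667 under the same 3 settings, at log2 fold changes of 0.76, 0.67 and 0.66.

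The Rab genes whose level followed that of Rab26 most closely within groups were Rab3a (r = 0.52), Rab29 (r = 0.44), a protein of lysosomes and the trans-Golgi, and Rab33a (r = 0.40). These are Pearson correlations of log2 CPM over 28 mice after subtraction of the 8 group means, and libraries and depth are common to both genes of a pair. Counts of Rab33a ran from 2 to 43 per mouse, the highest in PSD female 1.

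Rab26 overlaps other annotated genes at chr17:24527241-24534210 on the minus strand (GRCm38), with Traf7 on the same strand and Rab26os and Snord60 on the opposite one. Whether the counting used strand is not stated, so that reads in the shared parts may be assigned with uncertainty.

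Rab3b, a Rab3 isoform that controls exocytosis of docked granules, differed by sex and was higher in PSD + restraint females. Control females had 86.1, 59.4, 94.1 and 68.6 CPM, PSD females 116, 113, 95.5 and 106 CPM, and PSD + restraint females 112, 124, 121 and 107 CPM. Both treated groups lay above the female controls without overlap. Restraint females, with 71.1, 92.5, 86.1 and 77.7 CPM, overlapped the controls.

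The rise in females after PSD + restraint was 0.60 on the log2 scale (SE 0.12, adjusted p = 0.0137 in edgeR), or 1.52-fold. After PSD alone the log2 fold change was 0.49 (SE 0.12) with an adjusted p of 0.109, and after restraint 0.09 (adjusted p = 0.897). With the neurointermediate lobe score as a covariate the value after PSD + restraint was 0.51 (adjusted p = 0.153), and without control female 4 it was 0.55 (adjusted p = 0.0566), and under neither was it called. The summed melanotrope markers of these PSD + restraint females, mostly Pomc, ran from 72274 to 104291 CPM, and their part in the result was not tested beyond that covariate.

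Control males had more Rab3b than control females. Control males had 169, 132, 157 and 149 CPM, restraint males 145 and 161, PSD males 143, 154 and 155, and PSD + restraint males 137, 147 and 133. The male groups overlapped each other, and PSD + restraint males were at −0.12 against controls (adjusted p = 0.468 in edgeR). The female change exceeded the male change by 0.71 (SE 0.16), with an unadjusted p of 0.00014 and an adjusted p of 0.441, so that the difference was not called by edgeR.

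**Figure D3:**
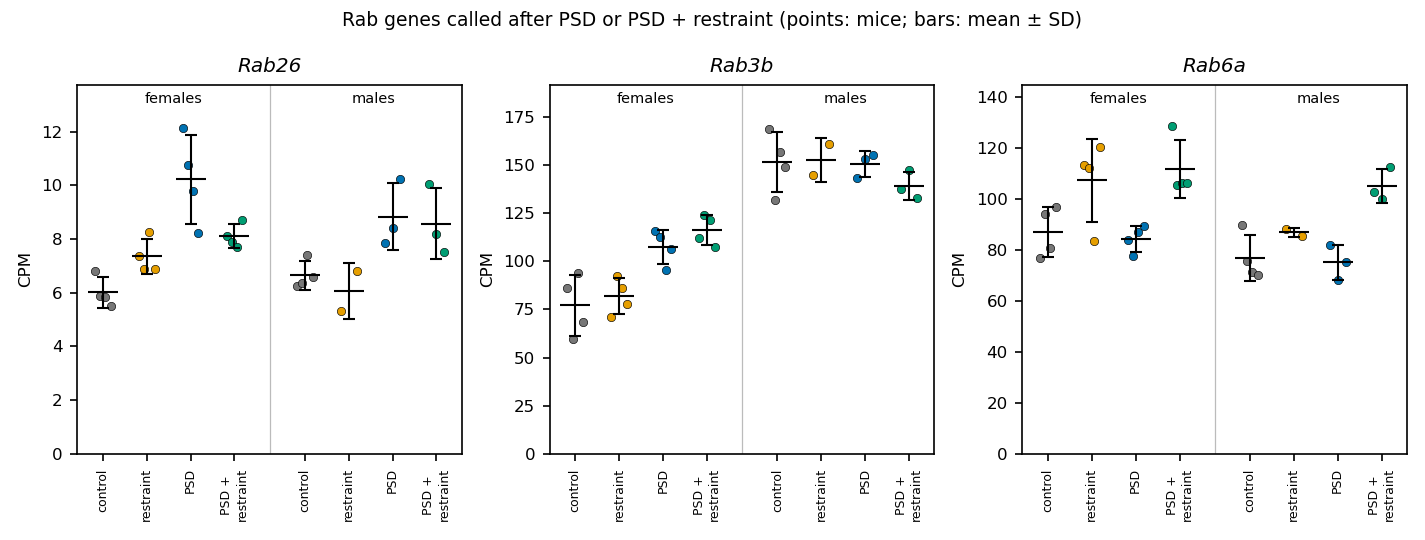
CPM of Rab26, Rab3b and Rab6a in each mouse (points) with the group mean and SD (bars), by treatment and sex. PSD mice lie above the controls of their sex for Rab26, males lie above females for Rab3b, and PSD + restraint mice lie above the controls of their sex for Rab6a.

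The other secretory members were not called in any treatment comparison. Rab3a, the most abundant Rab3 of neurons, had 62.2 to 81.4 CPM in control females and 61.1 to 88.4 in PSD females, and 54.1 to 58.6 in control males against 51.7 to 65.1 in PSD males. Rab3c ranged from 77.2 to 112 CPM and Rab3d, known from exocrine granules, from 57.7 to 107 CPM over all mice. Within each sex the treated groups overlapped the controls for these 3 genes, except for Rab3a in the 2 restraint males, which at 61.9 and 68.9 CPM lay above them (0.21 on the log2 scale, adjusted p = 1 in edgeR).

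Rab27a tethers granules at the plasma membrane. Control males had 214, 228, 255 and 242 CPM and PSD + restraint males 212, 203 and 205 CPM. All 3 treated males lay below the controls, at −0.18 on the log2 scale, with an adjusted p of 0.184 in edgeR. In females the groups overlapped, with 199, 208, 209 and 218 CPM in controls and 209, 212, 213 and 175 after PSD + restraint.

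Its close relative Rab27b had 25.2, 34.5, 27.1 and 34.5 CPM in control males and 46.3, 41.3 and 30.3 CPM after PSD + restraint, which is 0.38 higher on the log2 scale (adjusted p = 0.234 in edgeR) and not called. The highest value of the 28 mice was 46.6 CPM in PSD female 2, the mouse with the highest neurointermediate lobe score (5.69). The other PSD females had 21.3, 27.1 and 21.9 CPM.

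Rab37, found on secretory granules of several cell types, was near the lower limit of these libraries. It had 0.382 to 1.40 CPM in 25 of the 28 mice, 5.56 CPM (107 reads) in PSD female 1, 4.43 CPM (83 reads) in PSD + restraint female 4 and 4.12 CPM (194 reads) in control male 1. PSD female 1 and control male 1 were the libraries that stood apart. Their forebrain scores of 1.89 and 0.590 were the highest of the females and of the males, and PSD + restraint female 4 had 1.09. PSD + restraint female 2, with a score of 0.680, had 0.560 CPM of Rab37. The part of such tissue in the level of Rab37 was not tested. The other 3 PSD females lay between 0.382 and 1.29 CPM and overlapped the controls, and the log2 fold change after PSD in females was 1.12 (adjusted p = 0.423 in edgeR). Rab37 overlaps Cd300lf on the opposite strand.

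**Figure D4:**
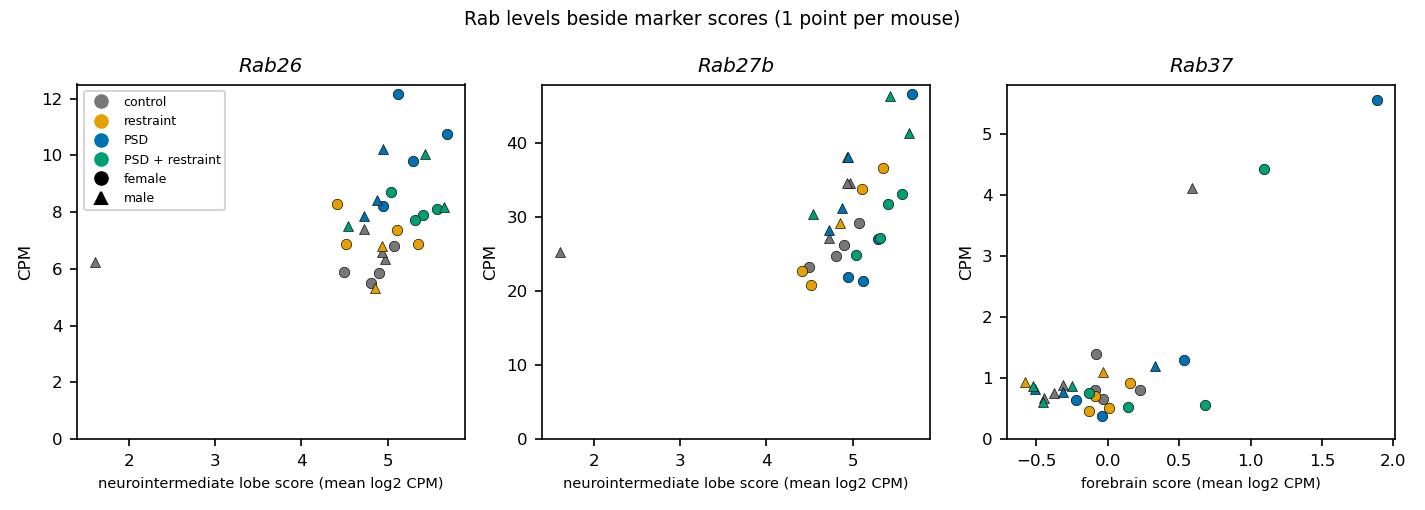
CPM of Rab26 and Rab27b against the neurointermediate lobe score and of Rab37 against the forebrain score, with a point per mouse coloured by group. Control male 1 stands apart at a neurointermediate lobe score of 1.60, and PSD female 1 at a forebrain score of 1.89 with the highest level of Rab37.

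Of the 16 genes of the endoplasmic reticulum and Golgi, Rab6a was higher after PSD + restraint. Rab6a works at the Golgi in retrograde transport and in the exit of secretory carriers. Control females had 76.7, 94.0, 80.8 and 96.8 CPM and PSD + restraint females 129, 105, 106 and 106 CPM. Control males had 89.8, 75.7, 71.5 and 70.3 CPM and PSD + restraint males 102.9, 99.97 and 113 CPM. In both sexes the treated mice lay above the controls without overlap, as was so for 2.13% of all genes and, of the family, also for Rab26.

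Rab6a rose by 0.40 on the log2 scale after PSD + restraint over both sexes (SE 0.07, adjusted p = 0.000532 in edgeR). In males alone it was 0.46 (SE 0.09, adjusted p = 0.0185) and in females alone 0.37 (SE 0.11, adjusted p = 0.0747). The male call was lost without control male 3, control male 4 or PSD + restraint male 1 (adjusted p = 0.0618, 0.0523 and 0.0639).

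PSD alone left Rab6a at the level of the controls, with 83.9, 77.6, 86.9 and 89.3 CPM in females and 82.1, 68.3 and 75.3 CPM in males. PSD + restraint exceeded PSD by 0.44 on the log2 scale over both sexes (SE 0.08, adjusted p = 0.00076 in edgeR). Restraint alone gave 113, 112, 83.6 and 120 CPM in females and 88.2 and 85.6 CPM in males. Its log2 fold change over both sexes was 0.26 (SE 0.08, adjusted p = 0.0798), and restraint females and males each overlapped their controls. The interaction of PSD and restraint was 0.17 (adjusted p = 1). The gene lies at chr7:100607410-100641268 on the plus strand and overlaps Gm14382 on the same strand and Mrpl48 on the opposite one.

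Rab43, which acts between endoplasmic reticulum and Golgi, moved the same way by less than the fold limit. Control females had 22.3, 18.0, 17.9 and 18.0 CPM and PSD + restraint females 22.7, 20.8, 23.8 and 23.5 CPM. Control males had 17.6, 21.7, 17.4 and 17.4 CPM and PSD + restraint males 23.4, 25.5 and 20.9 CPM. The groups overlapped in each sex, and the log2 fold change over both sexes was 0.29 (SE 0.07, adjusted p = 0.00642 in edgeR), where 10.9% of all genes passed the adjusted p at any fold.

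Rab6b, the brain-enriched relative of Rab6a, had the smallest unadjusted p of the family for PSD in males (0.00141). Control males had 59.1, 60.3, 49.2 and 59.9 CPM and PSD males 36.1, 44.9 and 46.6 CPM, without overlap, for a log2 fold change of −0.42 (SE 0.10, adjusted p = 0.253 in edgeR). PSD females had 91.0, 56.4, 54.5 and 60.6 CPM, the highest in PSD female 1, and the response of females exceeded that of males by 0.73 (SE 0.19, adjusted p = 0.301). DESeq2 called Rab6b in males, and it was the single Rab gene it called there, beside 72 of all genes.

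The other genes named from this group were not called. Rab2a, which sorts cargo to the Golgi, had a log2 fold change of −0.17 after PSD over both sexes (adjusted p = 0.103 in edgeR) and Rab18, known from lipid droplets, 0.11 after restraint (adjusted p = 0.25). Rab34, known from the Golgi and cilium formation, had −0.17 after restraint in males (adjusted p = 0.962). Rab33a, the second-lowest gene by TPM, had the highest log2 fold change of the family after PSD in females at 1.40 (SE 0.51, adjusted p = 0.158).

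The CRE core, TGACG, is the shorter form of the cAMP-response element to which CREB-family factors bind. It is shown for the genes called after treatment that have a promoter in the RefSeq tables (GRCm38.p6, 250 bases before to 50 after the start), which are Rab3b and Rab6a. Of the genes called between the sexes, Rab15, Rab19 and Rab9b also have promoters there, and none of these held a motif searched. Capitals mark the motif.
Rab3b: aagagcaaaactTGACGccatcatcatct
Rab6a: tcgatttgtcacTGACGtaagcgccccct
The Rab3b window is chr4:108878861-108878889 on the plus strand, with the motif starting 197 bases before the RefSeq start. The Rab6a window is chr7:100607505-100607533 on the plus strand, 69 bases before the RefSeq start. It lies inside the gene as annotated in GENCODE, which begins at 100607410, so that it is upstream by the RefSeq start only. Of the 58 genes, 48 matched, with 60 promoters. On either strand TGACG was found in 43.3% of the Rab promoters (26 of 60) and in 20.8% of all 32851 promoters. The full element TGACGTCA, which contains the core, was in 3.33% and 1.79%, the E-box CACGTG in 10% and 7.15%, and CATATG, the E-box bound by MIST1, in 1.67% and 3.91%. These are matches of letters, and promoters of neighbouring starts of a gene overlap.

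The 9 genes of the recycling endosome and the 7 of the early endosome were not called after any treatment. In PSD males all 9 recycling genes and all 7 early endosome genes had a log2 fold change under 0, with medians of −0.07 and −0.08 beside −0.00 over all genes, and in PSD females 3 of the 9 recycling genes lay above 0 and 6 below. Rab14, which links Golgi and endosomes, had 36.2, 29.9, 37.4 and 36.8 CPM in control males and 27.3, 26.7 and 29.8 CPM in PSD males. The PSD males lay just below the controls, with a log2 fold change of −0.32 (SE 0.09, adjusted p = 0.294 in edgeR). Rab17, an epithelial Rab, had a response to restraint in females that exceeded the one in males by 0.68 (SE 0.24, adjusted p = 1).

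Of the 4 genes that act from Golgi to plasma membrane, Rab10, known for moving glucose transporters to the surface, had the smallest p after PSD. Its log2 fold change over both sexes was −0.13 (SE 0.04, adjusted p = 0.0746 in edgeR), from 100.2 ± 7.92 CPM (SD, n = 4) in control females to 91.2 ± 2.04 (n = 4) in PSD females and from 92.0 ± 2.22 (n = 4) in control males to 83.5 ± 1.27 (n = 3) in PSD males.

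Of the 8 late endosome and lysosome genes, Rab38, which serves lysosome-related organelles, varied widely between restraint females, with 5.50, 3.35, 18.8 and 4.75 CPM. Its log2 fold change there was 0.92 (SE 0.41, adjusted p = 0.476 in edgeR). In PSD females it ranged from 7.36 to 10.7 CPM, with 0.97 (SE 0.41, adjusted p = 0.211). Rab28, 1 of the 2 genes of the cilium, had an interaction of −0.11 (adjusted p = 1).

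The remaining 4 genes include Rab40b and Rab40c, which are subunits of ubiquitin ligases, and Rab44, a large atypical Rab of immune and bone cells. Rab40b had a log2 fold change of −0.29 in PSD + restraint against restraint (adjusted p = 0.245 in edgeR) and of −0.26 against PSD (adjusted p = 0.211), and Rab40c −0.10 after restraint over both sexes (adjusted p = 0.585). Rab44 had 0.845, 4.21, 0.912 and 3.96 CPM in control females and 0.675, 0.437, 0.199 and 0.374 CPM in PSD females. PSD females lay below all controls, with a log2 fold change of −2.54 (SE 0.65, adjusted p = 0.109 in edgeR). PSD + restraint females, with 0.745, 0.367, 0.640 and 0.694 CPM, also lay below them, at −2.06 (SE 0.62, adjusted p = 0.0807). DESeq2 called Rab44 in both comparisons, where it called 394 and 627 of all 18059 genes. Its counts per mouse ran from 4 to 139.

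Levels between the sexes gave 6 calls, a share no higher than that over all genes. Over all mice, with the treatments as terms, 6 of 58 Rab genes were called, where 14.9% of all genes were, and between control females and control males the same 6 were called, where 10.7% were. Rab9b and Rab44 were higher in females, where 7.11% of all genes were over all mice and 4.94% between controls. Rab3b, Rab30, Rab19 and Rab15 were lower, where 7.79% and 5.79% were. At any fold, 23 of the 58 genes had an adjusted p of at most 0.05 over all mice, beside 34.4% of all genes.

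Rab3b separated the sexes. Females ranged from 59.4 to 124 CPM with a median of 94.8 and males from 132 to 169 with a median of 148, without overlap, as was so for 2.08% of all genes. The female level was 0.633 of the male over all mice (log2 −0.66, SE 0.08, adjusted p = 2.43e-07 in edgeR) and 0.509 of it between controls (log2 −0.98, SE 0.11, adjusted p = 1.08e-06). The gene overlaps 8030443G20Rik and Gm12736 on the opposite strand.

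Rab30, a Golgi Rab, ranged from 6.56 to 13.4 CPM in females (median 10.0) and from 10.1 to 31.1 CPM in males (median 17.5), with an overlap of the ranges. Control males had 26.5, 12.6, 12.0 and 10.1 CPM, the highest in control male 1. The log2 difference was −0.94 over all mice (SE 0.14, adjusted p = 5.03e-06 in edgeR) and −0.87 between controls (SE 0.25, adjusted p = 0.0211). Without control male 1 the latter was −0.46 (adjusted p = 0.186), and it was also lost without control female 3 or 4 (0.0538 and 0.0831).

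Rab19, known from Golgi and cilia, ranged from 4.02 to 7.77 CPM in females and from 6.89 to 10.2 CPM in males, at a log2 difference of −0.53 (SE 0.08, adjusted p = 1.68e-05 in edgeR). Control males had 9.96, 10.2, 8.77 and 9.39 CPM, restraint males 7.29 and 8.08 CPM and PSD + restraint males 6.89, 7.43 and 8.12 CPM. Both treated groups lay below the male controls. Their log2 fold changes were −0.31 (adjusted p = 0.721) and −0.36 (adjusted p = 0.081).

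Rab15, a Rab of the recycling endosome of neurons, ranged from 7.98 to 13.3 CPM in females (median 9.21) and from 9.78 to 20.8 CPM in males (median 13.3), at −0.56 (SE 0.10, adjusted p = 0.000143 in edgeR). Between controls it was −0.64 (SE 0.20, adjusted p = 0.033), and this call was lost without any of control females 1, 3 and 4 and control males 1 and 3 (0.0814 to 0.0939).

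Rab9b, which returns cargo from late endosomes to the Golgi and lies on the X chromosome at chrX:136858147-136868755, ranged from 10.5 to 18.8 CPM in females and from 8.84 to 12.3 CPM in males. The log2 difference was 0.36 over all mice (SE 0.08, adjusted p = 0.00102 in edgeR) and 0.51 between controls (SE 0.14, adjusted p = 0.0146). Without control female 4 they were 0.31, under the fold limit, and 0.37 (adjusted p = 0.099), and without control male 3 the control difference was 0.44 (0.0571).

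Rab44 ranged from 0.199 to 4.21 CPM in females and from 0.120 to 1.01 CPM in males, at 1.71 (SE 0.43, adjusted p = 0.00297 in edgeR) over all mice and 2.86 (SE 0.61, adjusted p = 0.00224) between controls. Leaving out any 1 mouse gave 2.49 to 3.54 between controls and 1.54 to 2.05 over all mice, and the shrunken values of DESeq2 were 0.94 and 0.90, with a call each time. Control females 2 and 4 had 4.21 and 3.96 CPM and control females 1 and 3 had 0.845 and 0.912, and no fit left out both high mice. The sexes did not overlap among control or restraint mice. They overlapped among PSD mice (0.199 to 0.675 CPM in females, 0.127 to 0.436 in males) and among PSD + restraint mice. Below the fold limit lay Rab35 of the recycling endosome, with 25.9 to 34.5 CPM in females and 22.6 to 29.2 CPM in males (0.26, adjusted p = 1.22e-05).

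**Figure D5:**
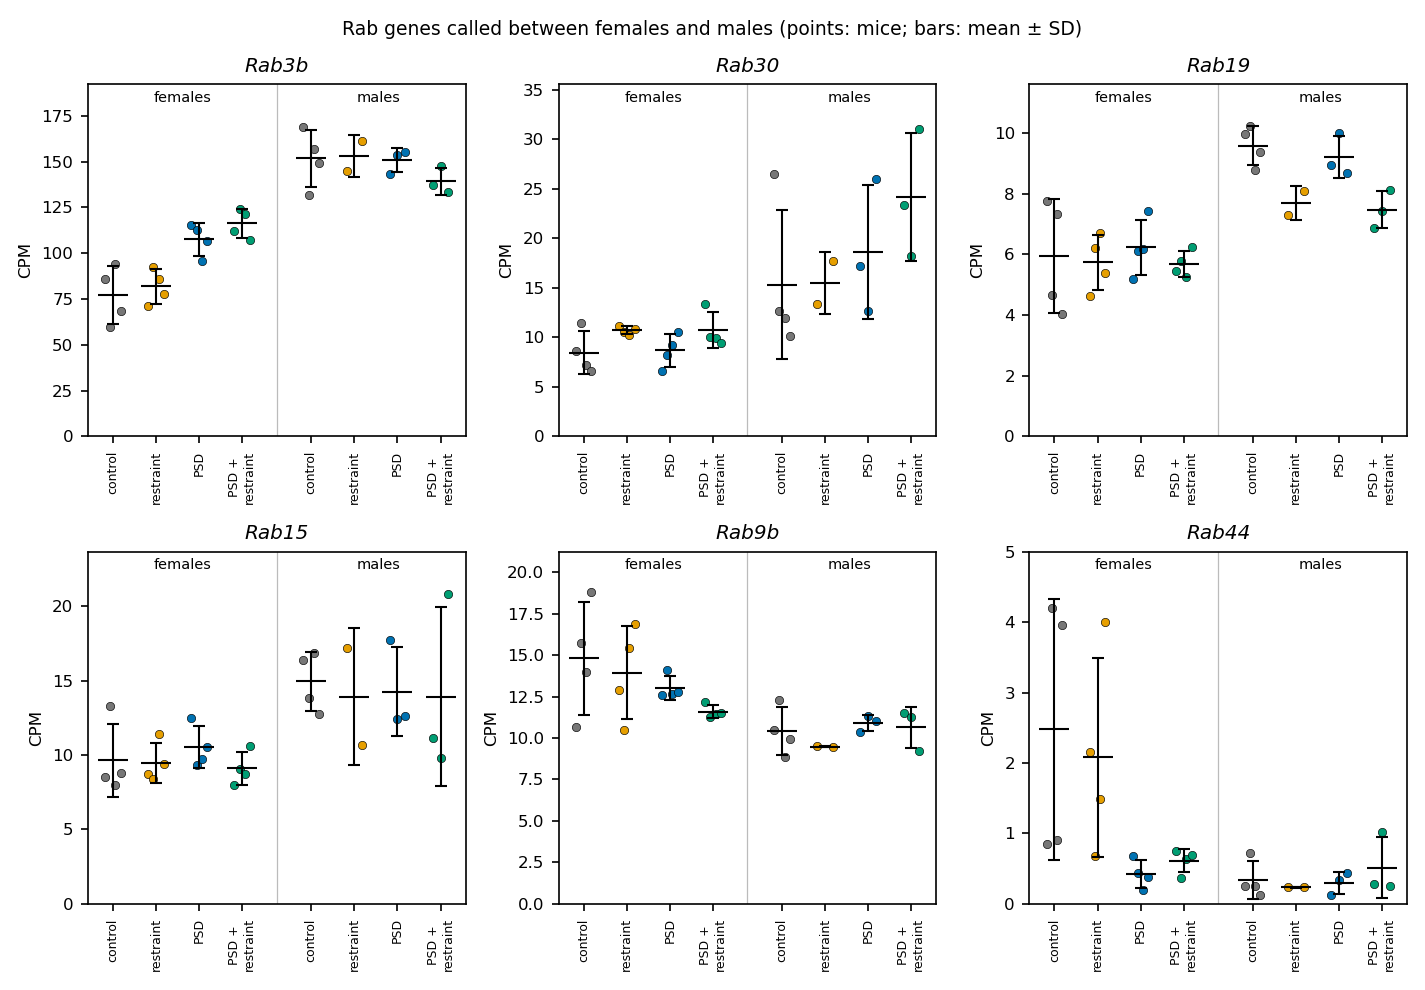
CPM of the 6 Rab genes called between the sexes, with a point per mouse by treatment and sex and bars for the group mean and SD. The sexes do not overlap for Rab3b (59.4 to 124 CPM in females, 132 to 169 in males), and overlap for Rab30, Rab19, Rab15, Rab9b and Rab44.

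No Rab gene was called by edgeR for a difference between the sexes in the response to any of the 3 treatments, where 0% of all genes were called. The unadjusted p was under 0.05 for 6, 9 and 4 Rab genes (4.25%, 10.8% and 7.2% of all genes). DESeq2 called 0, 0 and 1 (0, 18 and 10 of all 18936 genes), the last of them Rab3b. Among the smallest p were those of Rab39b, a neuronal Golgi Rab, for PSD (−0.33, SE 0.10, adjusted p = 0.302) and of Rab1b for PSD + restraint (−0.18, adjusted p = 0.581).

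The regulators and effectors of Rab proteins formed a list of 114 genes. In the single treatments, 0 were called by edgeR in either sex, while the unadjusted p was under 0.05 for 8 after restraint and 28 after PSD in females (9.77% and 19.8% of all genes) and for 0 and 8 in males (5.07% and 8.85%). After PSD + restraint 2 were called in each sex, beside 2.2% of all genes in females and 2.56% in males. Those of females were lower, Rbsn (−0.35, adjusted p = 0.00626), an effector on early endosomes, and Tbc1d7 (−0.50, adjusted p = 0.0341), which carries the GAP domain. In males Exph5, an effector of Rab27, was lower (−0.59, adjusted p = 0.0069) and Hps4, a subunit of the GEF for Rab32 and Rab38, was higher (0.48, adjusted p = 0.0364). Over both sexes Tbc1d7 (−0.38, adjusted p = 0.00123) and Exph5 (−0.45, adjusted p = 0.0154) were lower.

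Between the sexes 15 of the 114 were called, beside 14.9% of all genes. Of these, 9 were higher in females, led by the escort protein gene Chml (2.23, adjusted p = 5.62e-12 in edgeR), with Rabgap1l (0.57), Dennd2a (0.62) and Rph3a (0.57). The 6 that were lower include the Rab27 effectors Sytl3 (−1.30, adjusted p = 2.47e-11), Sytl2 (−1.41, adjusted p = 1.67e-06), Sytl4 (−0.46, adjusted p = 5.56e-08) and Mlph (−0.33), beside Dennd2c (−1.21) and Appl2 (−0.39). Sytl1 and Myrip, which also bind Rab27, were higher (0.36 and 0.34).

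Bhlha15 encodes MIST1, a transcription factor known to activate Rab26 and Rab3d in exocrine cells. Control males had 35.4, 39.3, 49.4 and 48.0 CPM, restraint males 71.7 and 62.1 CPM and PSD + restraint males 62.6, 66.6 and 62.6 CPM. Both restrained groups of males lay above the controls, at 0.64 (adjusted p = 0.0365 in edgeR) and 0.58 (adjusted p = 0.0123). Restraint females, with 88.6, 84.5, 61.4 and 83.0 CPM (0.36, adjusted p = 0.548), and PSD + restraint females, with 74.3, 64.0, 71.99 and 51.8 CPM (0.08, adjusted p = 0.842), overlapped their controls. The female and male changes were not called different (adjusted p = 1 and 0.688). After PSD alone, where Rab26 was higher, PSD males had 42.1, 43.9 and 43.8 CPM (0.02) and PSD females 44.8, 54.9, 37.3 and 46.8 CPM against 50.3, 69.5, 44.2 and 84.9 in controls (−0.43, adjusted p = 0.214).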

How the data were processed

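RNA of whole pituitaries from 28 mice was sequenced with a stranded mRNA library kit and 76-base paired reads. MapSplice was the aligner (mm10) and HTSeq 0.9.1 the counter, with gene models from UCSC in mode intersection-nonempty, and the table the authors deposited holds raw counts per gene and mouse. A deposited table of normalized values was not used here. Whether counting used strand is not stated. Genes were kept with edgeR's filterByExpr, scaled by TMM and tested with edgeR 4.0.16 (quasi-likelihood test, R 4.3.3) within each sex (18059 genes in females, 18271 in males) and in all mice with sex as a term (18936 genes). P-values were adjusted over all genes tested by Benjamini-Hochberg, with calls at an adjusted p of at most 0.05 and a fold of at least 1.25. Per-mouse values are CPM, and log2 CPM used a prior count of 2. TPM were computed from the counts with the unweighted mean GENCODE M21 transcript length of each gene (23770 of 32594 genes had one). Named were the secretory Rabs, every Rab called, the 3 smallest p per comparison, the 5 highest and lowest by TPM and the 3 most like Rab26, and other genes from lists where called. The family, its roles and the lists were chosen with earlier results of these data known. Each of the 37 pairs of mice within a group differed beyond counting noise. Alternatives were DESeq2 1.42.0, other scalings and filters, marker scores as covariates, a replicate block, and leaving out mice. Leaving out the pair of libraries that stood apart was chosen after the data were seen. The scripts were tested on simulated data. The replicate numbers do not pair the mice.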

Additional observations from a re-analysis of the deposited data

Results flagged for a closer look

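Single mice far from the others of their group were looked for in 70 groups of 4 mice over 14 Rab genes, and 9 passed Dixon's limit. By chance about 1 in 20 of the groups tested would pass it. Control male 1 was flagged for Rab30 (26.5 CPM, others 10.1 to 12.6) and Rab37 (4.12 CPM, others 0.672 to 0.888), and it is a library that stood apart by its neurointermediate lobe score. PSD + restraint female 4 was flagged for Rab37 (4.43 CPM, others 0.522 to 0.762), for Rab27a (175 CPM, others 209 to 213) and for Rab3d (61.6 CPM, others 75.3 to 76.5). Its forebrain score was 1.09, exceeded only by that of PSD female 1. PSD + restraint female 1 was flagged for Rab6a (129 CPM, others 105 to 106) and Rab30 (13.4 CPM, others 9.46 to 10.1). Control female 2 was flagged for Rab15 (13.3 CPM, others 8.01 to 8.78), and PSD female 2 for Rab9b (14.1 CPM, others 12.6 to 12.8).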

How the results depend on the processing

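Rab26 after PSD and after PSD + restraint over both sexes, and Rab6a after PSD + restraint over both sexes against control and against PSD, kept their calls under each of the 10 alternatives tried besides leaving out single mice (Rab26 adjusted p 2.47e-06 to 0.0186 and 0.00179 to 0.0337). Counts of Rab genes called changed as follows. For PSD in females (1, beside 5 of all 18059 genes) DESeq2 called 3, beside 394 of all genes. In these females 0 were called with the forebrain score (4 of all genes) or the neurointermediate lobe score (2) as covariate. It was also 0 with only the groups compared (0 of all genes) or without the libraries that stood apart (4). For PSD in males (0, beside 1 of all 18271 genes) DESeq2 called 1, beside 72 of all genes. For PSD + restraint in females (1, beside 398 of all genes) DESeq2 called 3 (627 of all genes) and the neurointermediate lobe score gave 0 (79). Only the groups compared or leaving out the libraries that stood apart gave 2 (511 and 444 of all genes). For PSD + restraint in males (1, beside 467) the neurointermediate lobe score and leaving out those libraries gave 2 (508 and 528). Without the fold limit 23 genes were called between the sexes over all mice (6510 of all 18936 genes). DESeq2 called 1 for the sex difference in the response to PSD + restraint (10 of all genes).

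Leaving out 1 mouse at a time gave 0 to 2 genes for PSD in females, 0 to 4 for PSD + restraint in females, 0 to 2 for it in males, 0 to 1 for restraint in females (1, Rab6a, without restraint female 3), and 3 to 7 between control females and males (3 without control female 4). Counts over all genes are not given for these fits. Direction changed in 4 cases, none of them called. The sex difference of Rab26 in the response to PSD + restraint was −0.0497 with the forebrain score and −0.0327 to 0.177 with a mouse left out, below 0 without control male 3 or PSD + restraint male 3. Its response to restraint in males was −0.305 to 0.0439 with a mouse left out, above 0 without restraint male 2. The cause of these changes was not tested.

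With the replicate block, PSD + restraint in males gave 0 (Rab6a 0.42, adjusted p = 0.0636 in edgeR), beside 147 of all genes. No other count of Rab genes moved by over 1.5 times. The numbers are no pairing, since the median correlation of same-numbered mice was −0.0179 in females and −0.0692 in males. No block could be had between the sexes. Groups of 2 to 4 mice limit what can be called, and genes near 1 CPM such as Rab37 and Rab44 rest on few reads.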
